A study of Drosophila melanogaster with 12 samples.

Results

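vir-1 (virus-induced RNA 1, CG31764) lies on chromosome arm 2L and is 1 of the 11982 genes with a probe set of their own on these arrays. It was measured by 1 of the 18769 probe sets tested. The probe set was taken because the platform annotation names vir-1 and no other gene for it. The gene itself was picked out with its values on all 12 arrays known, namely that its mRNA was higher after knock down of Tis11, higher after lipopolysaccharide (LPS), and highest after both. These values are therefore given as a description and without a test. In the naming of Affymetrix, the ending of its name, s_at, marks probes that match more than 1 transcript. RefSeq lists 7 transcripts and 7 proteins for vir-1, which this probe set does not separate.

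The cells were SL2, a *Drosophila melanogaster* line derived from embryos with properties of macrophage-like hemocytes, in 4 groups of 3 biological repeats. The first group received dsRNA against Tis11 and then LPS (Tis11 kd + LPS), and the second dsRNA against Tis11 alone (Tis11 kd). The third received dsRNA against GFP, a sequence foreign to the fly, and then LPS (GFP kd + LPS), and the fourth dsRNA against GFP alone (GFP kd). All 12 cultures thus carried dsRNA, at 12.5 µg/ml for 4 days, and LPS was given at 10 µg/ml for 4 hours. All cells come from 1 line, and p-values measure the spread between its biological repeats. The annotation assigns 0 probe sets to Tis11 alone, and those of several genes were not searched for it. The depth of its knock down was therefore not analysed here. The paper checked it separately by Northern blot and qPCR. Each value is a log2 signal from RMA, a procedure that subtracts background, brings the arrays to a shared distribution and summarizes the probes of a set into 1 number per array. A difference of 1 on this scale is a doubling of the signal. Signals of different probe sets depend on probe affinity and are not compared with each other.

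JAK-STAT signaling in the fly starts with ligands of the Unpaired family, which bind the receptor Domeless. The receptor activates the kinase Hopscotch, which phosphorylates the transcription factor Stat92E. Among the targets are Socs36E, a feedback inhibitor, the Turandot stress genes and vir-1, which is induced by *Drosophila* C virus in a manner that requires Hopscotch and is widely used as a readout of the pathway. Commercial LPS preparations act on fly cells largely through peptidoglycan, which triggers the Imd pathway and the genes of antimicrobial peptides. Tis11 is the fly homolog of tristetraprolin, a zinc finger protein that binds AU-rich elements in the 3′ untranslated region and promotes degradation of the mRNA. The study placed an AU-rich part of the vir-1 mRNA in a reporter for this decay, and reports that Tis11 kd stabilized the reporter mRNA. The paper also counts vir-1 among its Tis11-sensitive mRNAs. It describes a strong rise of vir-1 after Tis11 kd, with reference to a figure of qPCR and microarray fold changes. Its microarray data are those of this series, so that part is not independent of the values given here. For the vir-1 mRNA of the cells itself, the paper gives half-lives too long to be determined accurately, after GFP and after Tis11 dsRNA alike.

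vir-1 had log2 levels of 9.73, 9.97 and 9.73 in Tis11 kd + LPS cells, replicates 1 to 3. In Tis11 kd cells the levels were 9.80, 8.88 and 9.48. GFP kd + LPS cells had 8.82, 8.64 and 9.67, and GFP kd cells had 8.08, 8.29 and 9.02. The 3 values after both treatments were close together, within a range of 0.25, while the other groups each spread over 0.92 to 1.03. The highest of the GFP kd + LPS values, replicate 3, came close to the lowest after both treatments, and the highest of the GFP kd values was also replicate 3.

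**Figure D1:**
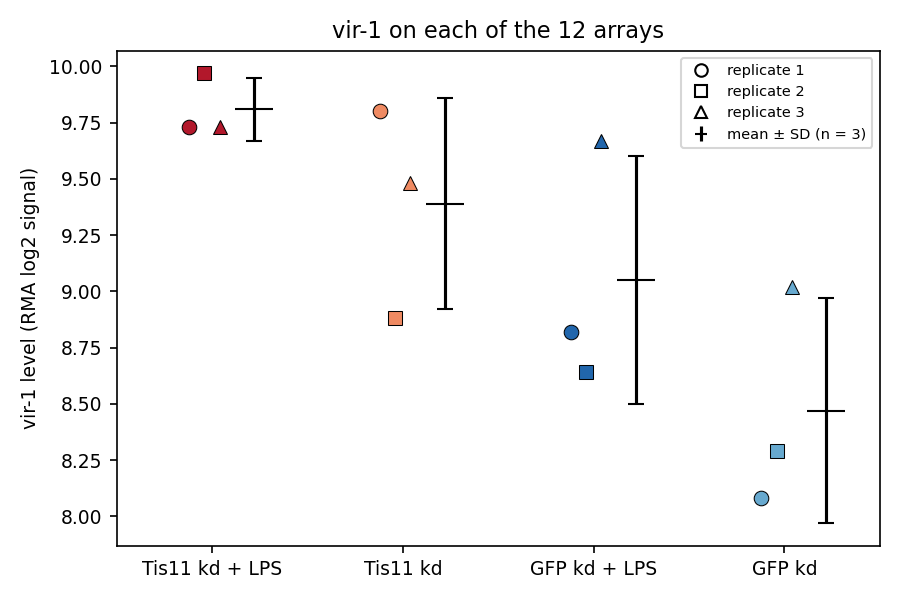
RMA log2 signal of vir-1 (vertical axis) on each of the 12 arrays by group, with symbols for the replicate number and black bars for the mean ± SD (n = 3). The 3 Tis11 kd + LPS arrays sit between 9.73 and 9.97, and the 3 GFP kd arrays between 8.08 and 9.02.

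The group means were 9.81 ± 0.14 in Tis11 kd + LPS cells, 9.39 ± 0.47 in Tis11 kd cells, 9.05 ± 0.55 in GFP kd + LPS cells and 8.47 ± 0.50 in GFP kd cells (SD, n = 3 each). In this order, neighbouring means differed by 0.42, 0.34 and 0.58. The spread within groups, pooled over the 4 groups, was 0.44 (SD), so only the last step was larger than it. In each of the 3 steps the values overlapped, and the upper group had the higher value in 7 of 9 pairs of arrays. Tis11 kd + LPS cells did not overlap with either GFP kd group, whereas Tis11 kd cells overlapped with both. On the linear scale the mean signals were 899.6, 691.5, 556.0 and 368.1 in the same order.

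After Tis11 kd without LPS, vir-1 was higher than after GFP kd by 0.92 (SE 0.31), or 1.89-fold. The Tis11 kd array was the higher in 8 of 9 pairs, and the lowest Tis11 kd value, 8.88, lay under the highest GFP kd value, 9.02. This was the 7th largest difference of the 18769 probe sets, of which 0.298% had a log2 difference over 0.5 and 2.58% had 3 higher values without overlap. With LPS, vir-1 was higher in Tis11 kd + LPS than in GFP kd + LPS cells by 0.76 (SE 0.27), or 1.70-fold. Here all 9 pairs were higher and the groups did not overlap, but the gap between them was only 0.05. This difference ranked the 4th, and 0.0959% of probe sets were over 0.5. In this comparison 7.77% of all probe sets had 3 higher values that did not overlap with the others.

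LPS was accompanied by a smaller difference in vir-1. In Tis11 kd cells the level was higher with LPS by 0.42 (SE 0.23), or 1.34-fold, with 7 of 9 pairs higher. In GFP kd cells it was higher by 0.58 (SE 0.35), or 1.5-fold, also with 7 of 9 pairs higher. These differences ranked the 199th and the 145th, so that 1.06% and 0.773% of probe sets had at least as large a value. A difference over 0.5 was seen for 0.730% and 1.15% of all probe sets. Both changed most with 1 array. Without Tis11 kd replicate 2, the lowest of its group, the difference with LPS in Tis11 kd cells was 0.17, and without GFP kd + LPS replicate 3 the difference in GFP kd cells was 0.27.

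With both treatments the mean of vir-1 was higher by 1.34 (SE 0.25), or 2.54-fold, in Tis11 kd + LPS than in GFP kd cells. All 9 pairs of arrays were higher, and the lowest value after both treatments was 0.70 above the highest GFP kd value. Of all probe sets, 5.16% had 3 higher values without overlap in this comparison, and 0.810% were higher by more than 0.5. vir-1 ranked the 31st, and 0.165% of probe sets had at least as large a value.

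The single differences of 0.92 for Tis11 kd and 0.58 for LPS add up to 1.5 on the log2 scale. The combined difference was 0.16 lower than this sum (−0.16, SE 0.45), that is 89.5% of it. A departure of at least this size from the sum, in either direction, was found for 38.5% of all probe sets. The SE is larger than the departure, and its sign changed to 0.05, 0.16 and 0.03 without Tis11 kd replicate 1, GFP kd + LPS replicate 3 or GFP kd replicate 1. The data thus do not separate a sum from a somewhat smaller or larger combined effect. Of the variation of vir-1 over the 12 arrays, 47.6% lay between Tis11 kd and GFP kd, 16.9% between arrays with and without LPS, 0.4% in the departure from the sum and 35.1% within groups.

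**Figure D2:**
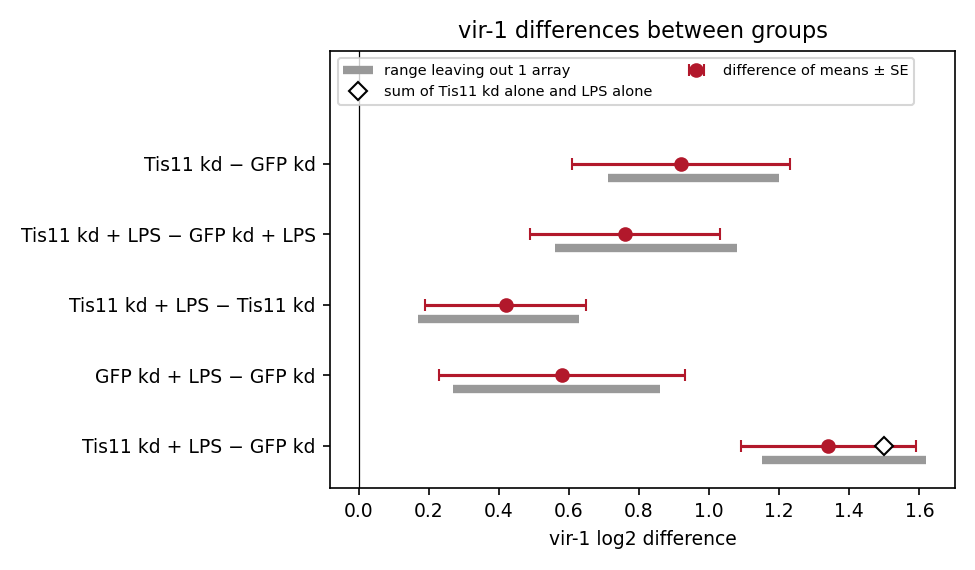
Log2 differences of vir-1 between groups (horizontal axis), as differences of means ± SE (red), with the range found when 1 array of the comparison is left out (grey) and the sum of both single differences (open diamond). All points and ranges lie above 0, from 0.17 to 1.62, and the combined difference of 1.34 lies within its SE of the sum, 1.5.

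Averaged over cells with and without LPS, the Tis11 kd difference of vir-1 was 0.84, or 1.79-fold, the 5th largest of all probe sets. Averaged over both dsRNAs, the LPS difference was 0.50, or 1.42-fold, which ranked the 140th. No other probe set was at least as high in both averages. Averages over 0.5 for both treatments were found for 3 probe sets, vir-1, yin and RapGAP1, with 0.53 and 0.73 for RapGAP1. RapGAP1, which encodes an activator of the GTPase activity of Rap1, was named after its values were seen. yin, which encodes a peptide transporter, was the gene with all 4 single differences over 0.5, among 11982 genes looked at. Over all probe sets, 0.00533% met this, and 0.0107% had all 4 over 0.4, which are vir-1 and yin. The cutoff of 0.4 lies just under the smallest single difference of vir-1, 0.42, so that the place of vir-1 here is no separate result.

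**Figure D3:**
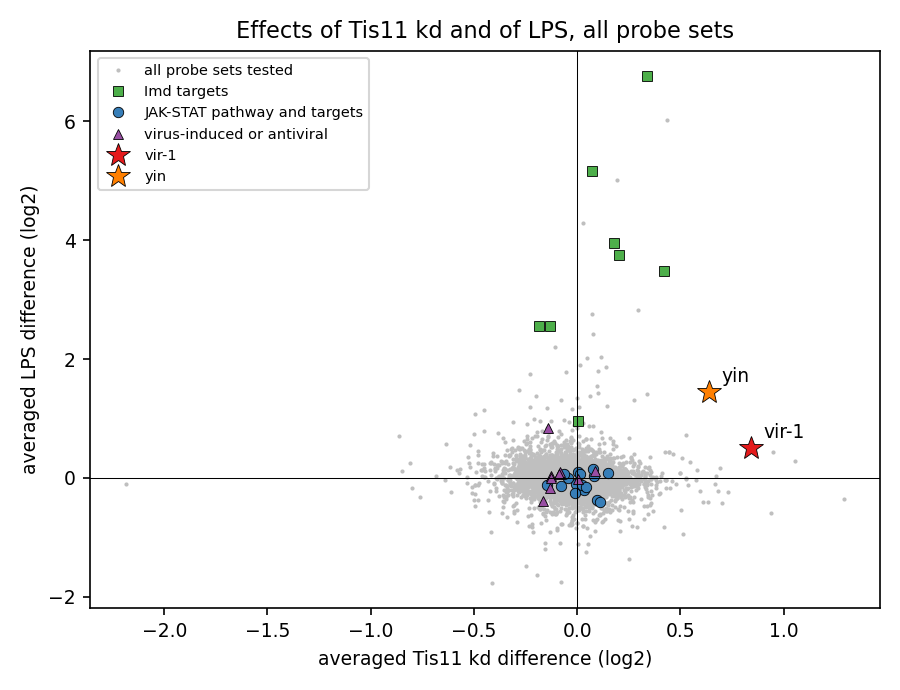
Averaged LPS difference (vertical axis, log2) against averaged Tis11 kd difference (horizontal axis, log2) for the 18769 probe sets (grey), with vir-1, yin and the gene lists marked. vir-1 stands at 0.84 and 0.50, to the right of and below all 8 Imd targets. The single differences averaged for the 16 other JAK-STAT genes ran from −0.25 to 0.21 for Tis11 kd and from −0.48 to 0.28 for LPS.

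The levels of yin did not follow those of vir-1. yin was at 9.0, 9.02 and 10.78 in Tis11 kd + LPS cells and 7.43, 9.05 and 7.90 in Tis11 kd cells. In GFP kd + LPS cells it was at 8.30, 10.24 and 8.26, and in GFP kd cells at 8.50, 7.24 and 6.82. Across the 12 arrays its Pearson correlation with vir-1 was 0.16, and −0.71 once the group means were subtracted. Arrays with a high vir-1 within their group thus tended to have a low yin.

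The repeats of vir-1 within a group differed by more than those of most probe sets. The SD of vir-1 was 0.47 in Tis11 kd, 0.55 in GFP kd + LPS and 0.50 in GFP kd cells, and 95.0%, 92.8% and 94.4% of probe sets had a lower SD in these groups. In Tis11 kd + LPS cells it was 0.14, and only 41.3% had a lower SD. These deviations were shared with many other mRNAs. A principal component of the deviations of all probe sets from their group means held 56.4% of that variation, and gave each array a score. The deviation of vir-1 correlated with this score at r = 0.90 over the 12 arrays, as a description, since the arrays share their groups and their normalization. An absolute correlation this high was found for 9.1% of all probe sets and for 18.3% of those with a mean of at least 6, and the median was 0.50.

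Arrays with a high score were GFP kd + LPS replicate 3 (0.41), GFP kd replicate 3 (0.37), Tis11 kd + LPS replicate 2 (0.34) and Tis11 kd replicate 1 (0.31). vir-1 was above its group mean on these arrays by 0.63, 0.56, 0.16 and 0.41. The lowest scores were −0.39 for GFP kd + LPS replicate 2, −0.35 for Tis11 kd + LPS replicate 3, −0.34 for GFP kd replicate 1 and −0.29 for Tis11 kd replicate 2, where vir-1 deviated by −0.40, −0.08, −0.38 and −0.50. Each group thus held an array from either end. Group means were subtracted before the component was derived, so the scores average 0 within each group by construction. They therefore cannot show whether the same variation also enters the differences between group means. After a line on the score was subtracted, the SD of vir-1 within groups was 0.21, against 0.44 before. What this shared variation stands for was not tested.

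**Figure D4:**
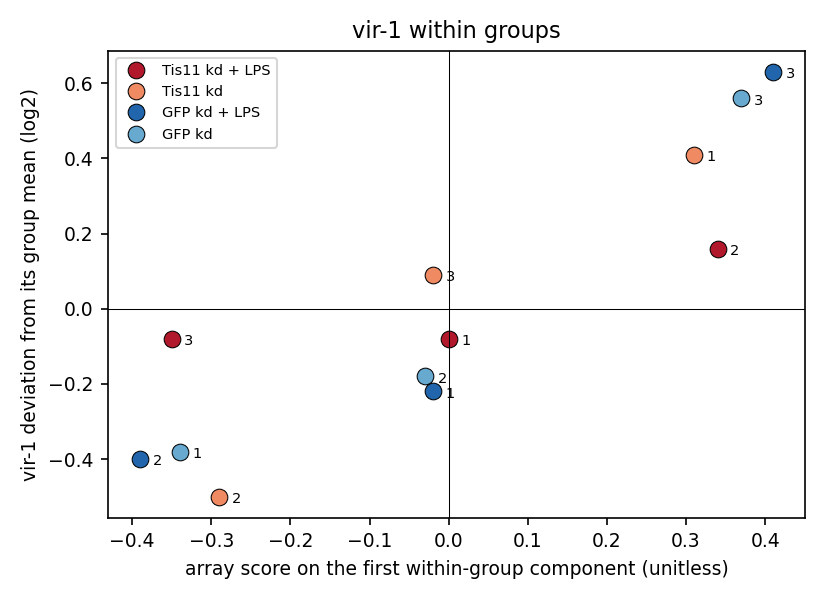
Deviation of vir-1 from its group mean (vertical axis, log2) against the score of each array on the leading component of variation within groups (horizontal axis, unitless, sign set so that GFP kd replicate 3 is positive), coloured by group and numbered by replicate. The points run from −0.50 to 0.63 along a rising line, with the Tis11 kd + LPS arrays between −0.08 and 0.16.

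By correlation over the 12 arrays, the genes most like vir-1 were sought among 5902 other genes with a mean log2 level of at least 6. The highest Pearson correlations were 0.87 for CG5721 and CG10098, and 0.86 for CG2065, CG15435 and CG3529. Sh3beta, Pak, which encodes a p21-activated kinase, and Mvd, an enzyme of the mevalonate pathway, each had 0.85. The dynactin subunit genes DCTN4-p62 and DCTN5-p25 had 0.84 and 0.83. The median over the candidates was −0.06, and 0.322% had a correlation over 0.8. Of these 10 genes, 7 were also among the first 10 by Spearman correlation, but 0 of the 10 were among the first 10 once group means were subtracted.

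These 10 genes were higher after Tis11 kd both without LPS, by 0.13 to 0.76, and with LPS, by 0.10 to 0.58. Mvd had the Tis11 kd differences closest to those of vir-1, with levels of 8.93, 8.72 and 8.58 in Tis11 kd + LPS, 8.88, 8.57 and 8.98 in Tis11 kd, 8.27, 7.72 and 8.50 in GFP kd + LPS and 7.88, 7.98 and 8.28 in GFP kd cells. Its Tis11 kd differences were 0.76 without and 0.58 with LPS, but its LPS differences were only −0.07 in Tis11 kd and 0.12 in GFP kd cells. CG2065 was the gene of the 10 with LPS differences closest to those of vir-1, 0.29 in Tis11 kd and 0.59 in GFP kd cells. Its levels were 9.52, 9.30 and 8.89 in Tis11 kd + LPS, 8.98, 8.78 and 9.07 in Tis11 kd, 8.96, 8.71 and 9.20 in GFP kd + LPS and 8.23, 8.32 and 8.56 in GFP kd cells. As the 10 were chosen by their correlation with vir-1, their direction is no separate result.

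The lowest correlations were −0.87 for Polr2J, a subunit of RNA polymerase II, and −0.84 for Ndf, a nucleosome-destabilizing factor, and CG34417. CG11474 followed with −0.83 and Tfb4, a subunit of the transcription factor TFIIH, with −0.82. Of the 5, CG34417 had the most negative difference with both treatments, with a mean of 5.91 in Tis11 kd + LPS and 6.58 in GFP kd cells, a log2 difference of −0.67. When only deviations from group means were compared, the genes closest to vir-1 were Ugt302K1 (r = 0.99), CG5510, CG4287, wfs1, the homolog of wolframin, and CG3829 (each 0.98). The Tis11 kd differences of these 5 genes ran from −0.44 to 0.14 without LPS. CG15435 and CG3529, named above, had deviations that also correlated with those of vir-1, at 0.95 and 0.92, beside Tis11 kd differences of 0.56 and 0.26 without LPS.

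Among the other genes of JAK-STAT signaling, no measured gene passed the test. Of 26 listed genes of the pathway and its targets, 16 had a probe set of their own, and 5 of these had a mean log2 level under 6, near background. Socs36E, the kinase gene hop, the ligand genes os and upd3, and the targets Tep1 and Tep2 had none and were not analysed here. By limma, 0 of the 16 passed in any of the 5 comparisons or in the interaction (adjusted p = 1.0 in each over all probe sets). Over all probe sets, 0% were called higher for Tis11 kd without and with LPS, against 0.0799% for LPS in Tis11 kd, 0.0533% for LPS in GFP kd cells and 0.0586% for both treatments together. At an unadjusted p under 0.05, limma gave 1 of the 16 for both treatments together, TotZ, and 0 in each other comparison and in the interaction. The methods' t-test gave TotZ for both treatments together and TotF for Tis11 kd with LPS and for LPS in Tis11 kd cells, 1 of 16 genes each. Over all probe sets the methods' t-test gave 3.77%, 4.74% and 3.58% for the same 3 comparisons. The shares of all probe sets higher at this level by limma were 0.874% for Tis11 kd without LPS and 1.89% with LPS, 1.27% for LPS in Tis11 kd and 0.89% in GFP kd cells, and 1.42% for both treatments, with 1.99% in either direction for the interaction. The median difference of the 16 genes was 0.09 for Tis11 kd without LPS and −0.08 with LPS, against 0 and 0.02 over all probe sets. For LPS it was −0.22 in Tis11 kd and 0 in GFP kd cells, against 0.01 and −0.02.

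Among the ligands, upd2 was near background, with a mean log2 level of 5.28 in Tis11 kd + LPS and 5.18 in GFP kd cells. The receptor gene dome was at 7.51, 7.54 and 6.38 in Tis11 kd + LPS, 7.88, 7.0 and 7.31 in Tis11 kd, 7.38, 6.72 and 7.78 in GFP kd + LPS and 6.66, 7.24 and 7.86 in GFP kd cells, with overlap between all groups. et, a short receptor that lowers signaling, had differences of 0.10 (SE 0.13) without and 0.09 (SE 0.22) with LPS for Tis11 kd. Its LPS differences were −0.37 (SE 0.19) in Tis11 kd and −0.36 (SE 0.17) in GFP kd cells, opposite in sign to those of vir-1. Stat92E, the transcription factor of the pathway, had a mean of 10.55 ± 0.33 in Tis11 kd + LPS, 10.88 ± 0.15 in Tis11 kd, 10.63 ± 0.64 in GFP kd + LPS and 10.73 ± 0.42 in GFP kd cells (SD, n = 3 each). After subtraction of group means, Stat92E correlated with vir-1 at −0.89 and dome at 0.79, and both correlated with the array score, at −0.86 and 0.95.

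Of the regulators, the suppressors of cytokine signaling Socs44A and Socs16D had Tis11 kd differences of 0.04 and 0.07 without LPS and −0.01 and −0.09 with LPS. The tyrosine phosphatase gene Ptp61F, a negative regulator, had 0.15 without and −0.10 with LPS. Su(var)2-10, an inhibitor of STAT of the PIAS family, had −0.04 and −0.25, and the repressor ken had 0.02 and −0.11. For the endosomal adaptor gene Stam the values were 0.01 and −0.17. For each of these 6 genes the groups overlapped in both comparisons.

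Of the other targets, the Turandot genes TotB, TotC, TotF and TotZ had mean levels from 3.32 to 5.31 in all groups, near background. TotA had no probe set of its own and was not analysed here, but the paper counts it among the mRNAs raised by Tis11 kd. TotF was at 5.24, 5.33 and 5.36 in Tis11 kd + LPS, 4.85, 5.12 and 5.13 in Tis11 kd, 5.01, 5.17 and 5.14 in GFP kd + LPS and 5.21, 4.93 and 5.12 in GFP kd cells, a difference of 0.22 (SE 0.11) for both treatments together. The 3 Tis11 kd + LPS values of TotF lay above those of each other group, and those of TotZ, at 4.53, 4.59 and 4.71, lay above the GFP kd values of 4.39, 4.4 and 4.34. Of all probe sets, 7.77% had such higher values without overlap for Tis11 kd with LPS, 5.04% for LPS in Tis11 kd cells and 5.16% for both treatments, against 1, 1 and 2 of the 16 genes. chinmo and zfh1, transcription factor genes that act downstream of the pathway in the testis, both had 0.19 for Tis11 kd without LPS (SE 0.23 and 0.24), and 0.03 and −0.10 with LPS. Their LPS differences were at or under 0, from −0.48 to −0.02.

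Of 11 listed virus-induced or antiviral genes other than vir-1, 9 had a probe set. By limma 0 passed in any comparison (adjusted p from 0.21 to 1.0). Unadjusted p were under 0.05 for 1 of the 9 in each of the 3 comparisons that involve LPS against no LPS, by limma and by the methods' t-test alike. Over all probe sets the methods' t-test gave 3.58% for LPS in Tis11 kd, 2.83% for LPS in GFP kd and 3.77% for both treatments, and limma gave 1.27%, 0.89% and 1.42% as higher. The gene is pst, which is known for its part in resistance to *Drosophila* C virus. pst was at 8.31, 8.15 and 8.27 in Tis11 kd + LPS, 7.5, 7.4 and 7.74 in Tis11 kd, 8.05, 9.16 and 8.37 in GFP kd + LPS and 7.53, 7.53 and 7.59 in GFP kd cells. All 6 arrays with LPS lay above all 6 without. The LPS differences were 0.70 (SE 0.12) in Tis11 kd and 0.98 (SE 0.27) in GFP kd cells, while the Tis11 kd differences were 0 (SE 0.11) without and −0.28 (SE 0.28) with LPS. Of all probe sets, 5.04% and 2.15% had 3 higher values with LPS without overlap, in the same order.

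Vago, which encodes a secreted antiviral factor, had Tis11 kd differences of −0.09 (SE 0.56) and −0.24 (SE 0.37) without and with LPS. Sting, a sensor of cyclic dinucleotides, had −0.10 (SE 0.36) and −0.07 (SE 0.40), and CG3740 had 0.05 (SE 0.21) and 0.12 (SE 0.22). Of the small RNA factors of antiviral defense, Dcr-2 had −0.04 and −0.22, r2d2 −0.01 and −0.17, and loqs −0.12 and −0.13. The autophagy adaptor gene ref(2)P, named for a phenotype with sigma virus, had −0.20 and −0.05, and Listericin, at a mean of 3.8 to 3.84, had −0.01 and 0.02. The median over the 9 genes was −0.04 without and −0.13 with LPS.

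**Figure D5:**
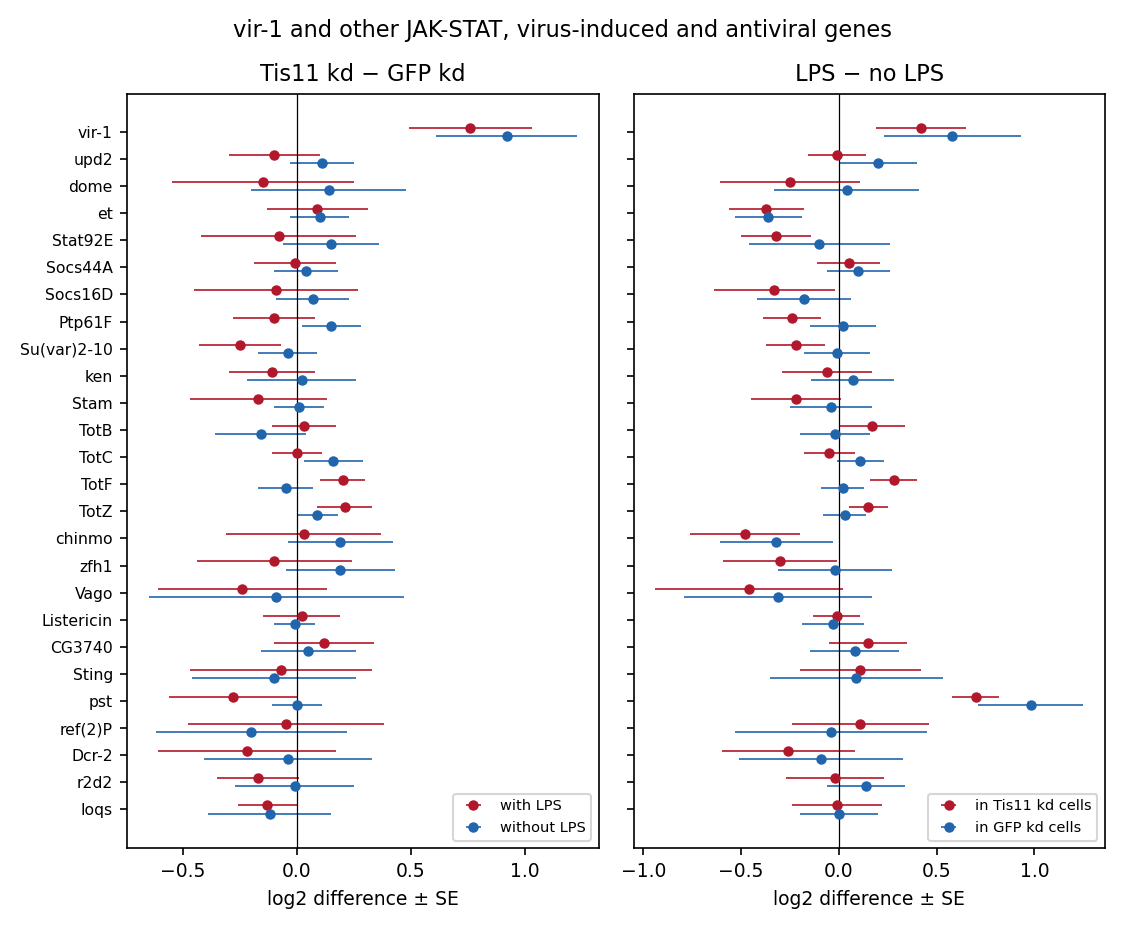
Log2 differences ± SE (horizontal axes) of vir-1 and of 25 other genes of JAK-STAT signaling, virus induction or antiviral defense, for Tis11 kd (left) and for LPS (right). For Tis11 kd, vir-1 stands at 0.76 and 0.92 while the other genes lie between −0.28 and 0.21, and for LPS only pst, at 0.70 and 0.98, lies above it.

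The treatment with LPS was visible in the same arrays. Of 15 listed targets of the Imd pathway, 8 had a probe set, and 6 of them passed as higher with LPS in Tis11 kd cells, 4 in GFP kd cells and 4 for both treatments together. Over all probe sets 0.0799%, 0.0533% and 0.0586% were called higher in the same order. For all 8 the groups did not overlap in these 3 comparisons. Of all probe sets, 5.04%, 2.15% and 5.16% were higher without overlap. The number of Imd targets called depended on the fit. With the replicate block it was 2, 6 and 2 in the same order, and by the methods' t-test after adjustment it was 0 in each. Without 1 array it ran from 3 to 7 for LPS in Tis11 kd, lowest without Tis11 kd replicate 1 or 3, and from 0 to 5 for LPS in GFP kd, with 2 left without GFP kd + LPS replicate 1 and 1, 0 and 1 without GFP kd replicates 1, 2 and 3. For both treatments it ran from 0 to 4, with 0 left without GFP kd replicate 2. AttD, an attacin, was at 10.94, 12.10 and 10.52 in Tis11 kd + LPS against 4.22, 4.62 and 4.05 in Tis11 kd cells, a difference of 6.89 (SE 0.39, adjusted p = 0.0017 by limma). CecB, a cecropin, differed by 3.53 and DptB, a diptericin, by 4.20 in the same comparison. PGRP-LB, an amidase that degrades peptidoglycan, differed by 2.29 (adjusted p = 0.062 by limma). For Tis11 kd, 0 of the 8 passed without or with LPS, also at an unadjusted p under 0.05 by limma and by the methods' t-test, and the medians were 0.04 and 0.24.

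Both genes next to vir-1 on 2L, by their order in RefSeq, were near background. Pkd2 had mean levels from 3.81 to 3.92 and Fam92 from 5.42 to 5.54 over the 4 groups. Their Tis11 kd differences were −0.08 and 0.05 without LPS and 0.09 and 0 with LPS. The next gene beyond Fam92, CG5446, had LPS differences of 0.40 (SE 0.17) in Tis11 kd and 0.48 (SE 0.21) in GFP kd cells, with overlapping groups, and Tis11 kd differences of 0.06 and −0.02. By limma 0 of these 3 genes passed in any comparison (adjusted p = 1.0). At an unadjusted p under 0.05 limma gave 1 of the 3 for LPS in Tis11 kd, where 1.27% of all probe sets were higher. The methods' t-test gave 0 there. The Pearson correlation of CG5446 with vir-1 over the 12 arrays was 0.64. CG17010, the gene beyond Pkd2, had no probe set of its own. These genes were looked at after the values of vir-1 were known.

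Over the arrays as a whole, log2 values ran from 2.25 to 14.01, array medians from 5.05 to 5.22, and 11575 probe sets had a mean under 6. All 8 listed plasmatocyte or macrophage markers were measured, with group means from 7.12 (Hml) to 12.07 (Pxn). Fat body markers, from 3.41 to 5.41, and neuronal markers, from 4.93 to 5.92, were near background. Of the crystal cell markers lz and peb were near background and PPO1 and PPO2 were not. Of the lamellocyte markers atilla was near background, and PPO3, mys and cher were not. The summed signal of the plasmatocyte markers was 13.64 on the log2 scale in Tis11 kd + LPS, 14.0 in Tis11 kd, 13.37 in GFP kd + LPS and 13.48 in GFP kd cells. Such a sum adds signals of different probe sets, so those with the highest signals, such as Pxn, weigh most in it. By limma 0 of the 8 passed for Tis11 kd without or with LPS (adjusted p = 1.0). At an unadjusted p under 0.05 limma gave 2 and 0 of the 8, and the methods' t-test 0 and 0. Over all probe sets, limma gave 0.874% and 1.89% as higher at this level, and the methods' t-test 2.12% and 4.74% in either direction. Without LPS the median difference was 0.32, and 7 of the 8 were above 0. NimC1 and Pxn, 2 of the 8, were higher there without overlap, as were 2.58% of all probe sets. With LPS the median difference was 0.09, 3 of the 8 were below 0 and all overlapped. Pxn, which encodes peroxidasin, had the largest differences, with means of 11.53 in Tis11 kd + LPS, 12.07 in Tis11 kd, 10.42 in GFP kd + LPS and 10.59 in GFP kd cells. The other 7 markers summed to 13.27 in Tis11 kd + LPS, 13.57 in Tis11 kd, 13.17 in GFP kd + LPS and 13.27 in GFP kd cells. The part of these markers in the difference of vir-1 was not tested. In these bulk samples fewer cells of a type and less RNA per cell cannot be told apart.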

How the data were processed

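Affymetrix Drosophila Genome 2.0 arrays of 12 SL2 cultures were normalized by the authors with RMA, and the deposited values are log2 signals of 18952 probe sets. A joint or separate RMA run of the 12 arrays is not given in the sources used here. The 183 control probe sets were left out, and no further normalization was applied. Gene names came from GEO's annotation of the platform (1 gene for 13647, several for 402, none for 4720), and a gene was represented by its probe set with the highest mean. Groups were taken from the sample labels. Each comparison of 3 arrays against 3 was fitted on its own 6 arrays with limma 3.58.1 in R 4.3.3, and the interaction on 12, with Benjamini-Hochberg adjusted p under 0.05 over all 18769 probe sets as the threshold. The fits were tested on simulated data. vir-1 was given no test.

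The gene, the lists and the tests were chosen with earlier results of these data known. Named genes are vir-1, list members, the 10 genes most and 5 least correlated with vir-1 (mean of at least 6), the 5 closest in deviations, and genes with all 4 differences over 0.5. The component of variation within groups, the averages and the neighbours on 2L were added after the values were seen. Alternatives were other scalings, medians, a replicate block, all 12 arrays in 1 fit, a filter at 6, an intensity trend, the methods' t-test and leaving out each array. Python 3.11.15 and matplotlib 3.10.9 drew the figures. The number of arrays limits the precision.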

Additional observations from a re-analysis of the deposited data

How the results depend on the processing

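All 5 differences of vir-1 between groups, and both averaged differences, stayed above 0 under every alternative run. As vir-1 was chosen by these values, their sign is no separate result. No shift reached the within-group SD of 0.44, but this SD is larger than the LPS difference in Tis11 kd cells, 0.42. Without 1 array that difference fell as low as 0.17, and the LPS difference in GFP kd cells fell from 0.58 to as low as 0.27. Leaving out 1 array gave 0.71 to 1.20 for Tis11 kd without LPS, 0.56 to 1.08 with LPS, 0.17 to 0.63 for LPS in Tis11 kd, 0.27 to 0.86 for LPS in GFP kd, 1.15 to 1.62 for both treatments, 0.74 to 1.00 and 0.34 to 0.64 for the averaged Tis11 kd and LPS differences, and −0.44 to 0.16 for the departure from the sum, which changed sign for 3 arrays. The methods' t-test called 0, 1 and 0 probe sets after adjustment for LPS in Tis11 kd, LPS in GFP kd and both treatments, against 15, 10 and 11 by limma. The replicate numbers did not pair the arrays (correlations of same-numbered arrays from −0.76 to 0.82). With the replicate block 4 were called for LPS in Tis11 kd, 13 for LPS in GFP kd and 5 for both treatments. The block cannot change a difference of vir-1, since each group holds each replicate number, so the same differences show no robustness. Without 1 array the counts ran from 6 to 26 for LPS in Tis11 kd, 0 to 14 for LPS in GFP kd and 0 to 17 for both treatments. For LPS in Tis11 kd, 9 and 26 were called without Tis11 kd + LPS replicates 1 and 3, and 6, 8 and 6 without Tis11 kd replicates 1, 2 and 3. For LPS in GFP kd, 5 were called without GFP kd + LPS replicate 1, and 6, 0 and 3 without GFP kd replicates 1, 2 and 3. For both treatments, 7 and 17 were called without Tis11 kd + LPS replicates 1 and 3, and 6, 0 and 6 without GFP kd replicates 1, 2 and 3. The causes were not tested. For Tis11 kd without and with LPS and for the interaction, and for the JAK-STAT, virus-induced and antiviral genes, 0 were called under every alternative run. At an unadjusted p under 0.05 limma gave 206, 488 and 373 probe sets for these 3 fits, and the methods' t-test 398 and 889 for Tis11 kd. After arrays were centred on their median, 80 of 404 such probe sets were higher for Tis11 kd with LPS, against 355 of 488 before, 120 of 541 for LPS in Tis11 kd, against 239 of 508, 226 of 296 for LPS in GFP kd, against 167 of 313, and 153 of 454 for both treatments, against 267 of 475, so the direction of such calls depends on the scaling.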
